A study of Mus musculus with 12 samples.

Results

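The miR-455 hairpin gives rise to mmu-miR-455-5p and mmu-miR-455-3p, 2 of the 1906 mature microRNA names counted in mouse liver. Each name stood at 1 locus of the table, and both passed edgeR's filter on low counts, as did 419 names in all. The arms were chosen by their measured counts, with the difference of both arms between male and female livers already known. Their levels by sex are therefore given as a description, without a test, and tests were kept to the balance of the arms and their variation within a sex. The livers came from 6 male and 6 female Crl:CD1(ICR) mice, an outbred stock, all 8 weeks old; no treatment or altered allele is named for any animal. Each liver gave 1 small RNA library. The labels number the livers within a sex and say nothing of litters, housing or batches, so the spread is that between these libraries.

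MicroRNAs are cut from a hairpin in a longer transcript. The hairpin leaves a duplex of 5p and 3p strands, of which usually one is loaded into an Argonaute protein and the other is lost. The loaded strand finds its target transcripts mainly through its seed, the bases near its 5′ end. miR-455 lies in an intron of Col27a1, which encodes a fibrillar collagen chain made mostly in cartilage. In mice it has been studied mainly in cartilage, beside miR-140, and in the formation of brown fat.

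On the mm9 build of the files, mmu-miR-455-5p was counted at chr4:62917901-62917922 and mmu-miR-455-3p at chr4:62917938-62917958, with 15 bases between the arms. No other locus of the table overlapped this stretch, though how reads that map to several places were counted is not stated. In GENCODE M21, which is on a later build, the hairpin lies on the strand of Col27a1, in intron 10 of the protein-coding transcript with 61 exons, and overlaps no exon of Col27a1. The mature sequences are shown because the arms carry unrelated seeds and are followed separately throughout. They are taken from RefSeq (GRCm38.p6, plus strand), are written 5′ to 3′, and have bases 2 to 8, the seed, in capitals.
mmu-miR-455-5p: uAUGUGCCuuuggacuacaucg
mmu-miR-455-3p: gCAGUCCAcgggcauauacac

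The 5p arm has 22 bases, starts with U and holds 45.5% G and C. The 3p arm has 21 bases, starts with G and holds 57.1% G and C. A minimum-energy pairing of these strands had 16 base pairs, of which 2 were G-U pairs, at -22.3 kcal/mol. All 7 seed bases of the 5p arm and 6 of 7 of the 3p arm were paired in it. Among 1679 mouse mature names with a RefSeq sequence, the 5p seed was shared only by miR-5129-3p, which had 50 counts over all 12 livers and was not tested. No other of these names had the 3p seed.

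Each liver had between 2953955 and 5516430 microRNA counts in total, and the arms of miR-455 had between 801 and 4494 counts in a liver. A floor of 3 counts corresponded to 0.544 to 1.02 counts per 1000000 counts (CPM), far below either arm. Intervals and floors cover counting error only, since reads without molecular identifiers are not independent molecules. The hepatocyte list (miR-122, miR-192, miR-194 and miR-148a, 8 tested arms) summed to 461300 to 499100 scaled CPM in males and 490400 to 540500 in females. Scaled CPM need not add up to 1000000 in a library, so such sums are not shares of counts. miR-122 is the defining microRNA of hepatocytes. In whole liver, fewer cells of a type and less RNA per cell cannot be told apart.

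mmu-miR-455-5p was the 69th most abundant of the tested names, ranked by CPM after TMM scaling, which uses a trimmed mean of log ratios to align libraries. In males it stood at 403 CPM in male 1, 925 in male 2, 1005 in male 3, 874 in male 4, 1035 in male 5 and 949 in male 6. In females it stood at 268 CPM in female 1, 428 in female 2, 312 in female 3, 342 in female 4, 390 in female 5 and 389 in female 6. Males 2 to 6 formed a narrow group well above every female, while male 1 lay inside the female range, below female 2 only. The means were 865 ± 233 CPM in males against 355 ± 58.7 CPM in females (SD over livers, n = 6 each). Without male 1 the male mean was 957 ± 64.1 CPM (SD, n = 5). The log2 difference between males and females was 1.29 (SE 0.20), which is 2.44-fold; it was 1.42 without male 1.

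mmu-miR-455-3p was the 77th most abundant name. In males it stood at 663 CPM in male 1, 661 in male 2, 637 in male 3, 660 in male 4, 488 in male 5 and 468 in male 6. In females it stood at 196 CPM in female 1, 256 in female 2, 247 in female 3, 301 in female 4, 373 in female 5 and 264 in female 6. The sexes did not overlap for this arm, and male 1, low in the 5p arm, was the highest male here. The lower males were male 5 and male 6, and the highest female was female 5. The means were 596 ± 92.2 CPM and 273 ± 59.6 CPM (SD over livers, n = 6 each), a log2 difference of 1.13 (SE 0.15), which is 2.18-fold.

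Both arms were called higher in males by edgeR's quasi-likelihood test over all 419 names with Benjamini-Hochberg adjustment, and were among 35 such names (8.35%). Another 36 names (8.59%) were called higher in females, or 16.9% in either direction. Scaled by total counts, calls numbered 84, of which 26 had the higher level in males and 58 in females. With no filter on low counts they numbered 54, of which 35 and 19 did. Every male exceeded every female in 19 names (4.53%), the 3p arm among them and the 5p arm not. Nothing is read from these counts, since the arms were selected on this contrast. In the authors' deposited table, the log2 fold changes of male over female were 1.33 for the 5p arm and 1.16 for the 3p arm. Scaling by total counts alone shifted the median over the 419 names from -0.02 to -0.12 and gave 1.17 and 1.02.

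**Figure D1:**
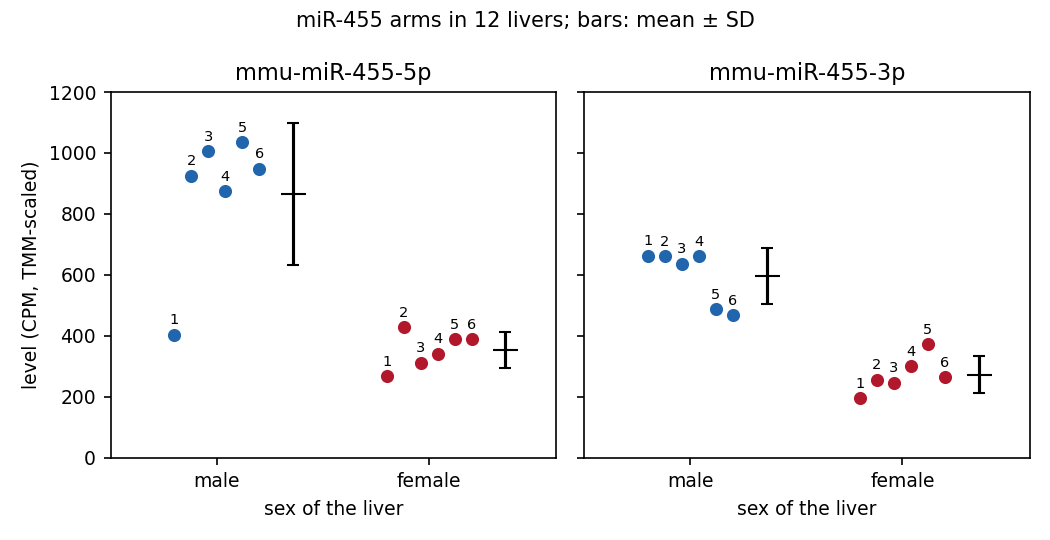
Level of each arm (vertical axis, CPM scaled by TMM) in the 6 male and 6 female livers; each point is a liver with its number, and bars give the mean ± SD. For the 5p arm male 1, at 403 CPM, lies among the females, whereas for the 3p arm all males lie above all females.

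The ratio of the arms within a liver does not depend on the scaling of libraries and was not used to choose them. The 5p arm exceeded the 3p arm in 11 of 12 livers, and the exception was male 1. Over the livers the log2 ratio of 5p to 3p counts, with 0.5 added to each, averaged 0.44 ± 0.47 (SD, n = 12), or 1.36-fold. This differed from an even split (exact two-sided sign-flip permutation test over 4096 arrangements, p = 0.0112). Without male 1 the mean was 0.54 ± 0.32 (SD, n = 11), with the 5p arm higher in all 11; no p is given, since male 1 was the only liver with a negative log ratio. Counts of different sequences also depend on how readily each was ligated and amplified, so the ratio describes libraries rather than molecules in the cell.

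Among the males, the 5p share of miR-455 counts was 37.8% in male 1 (95% Wilson interval 36.2 to 39.5%), 58.3% in male 2, 61.2% in male 3, 57.0% in male 4, 68.0% in male 5 and 67.0% in male 6. Among the females it was 57.8% in female 1, 62.5% in female 2, 55.8% in female 3, 53.2% in female 4, 51.1% in female 5 and 59.6% in female 6. The interval of female 5, 49.2 to 53.0%, was the only one of the 12 that included an even split. Counting error was small beside these differences: the chi-square per degree of freedom of the split was 97.2 over all livers, 190 within males and 19.3 within females.

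The sexes overlapped in this balance. The log2 ratio averaged 0.49 ± 0.65 in males against 0.39 ± 0.25 in females (SD over livers, n = 6 each), a male-minus-female difference of 0.10, and 3 of 6 males lay inside the female range. The difference was 0.34 without male 1, -0.02 without male 5 and -0.01 without male 6, so that it was smaller than the spread between livers and its sign rested on single livers. No test was made, because it belongs to the contrast on which the arms were selected.

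**Figure D2:**
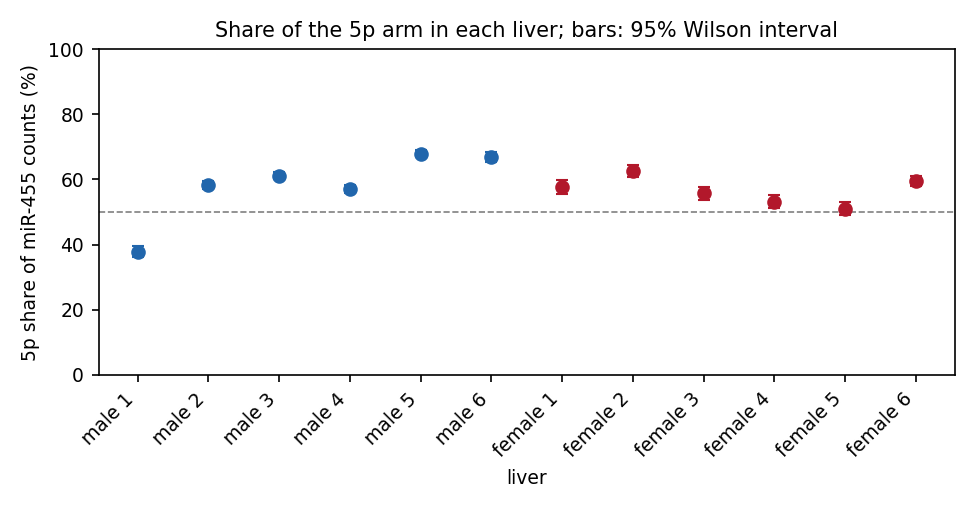
Share of the 5p arm in the counts of both miR-455 arms (vertical axis, percent) in each liver, males in blue and females in red, with 95% Wilson intervals; the dashed line marks an even split. Male 1 lies at 37.8%, and the other livers lie between 51.1% and 68.0%.

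Most hairpins were far less even than miR-455. Of 104 hairpins with both arms tested, each at 1 locus and free of overlap with other names, the median hairpin had a 12.1-fold difference between its arms. miR-455 was the 12th most even, and 22 hairpins were within 2-fold. The contrast was weaker among the 13 hairpins whose rarer arm averaged at least 100 CPM. There miR-455 was 3rd, the median difference was 5.38-fold and 5 were within 2-fold. The balance of miR-455 varied between livers more than that of most hairpins of similar abundance. The standard deviation of its log2 ratio within a sex was 0.49, where counting error alone gives about 0.051. Among the 13 hairpins whose rarer arm averaged at least 100 CPM, a limit chosen after the values were seen, the median was 0.15. There miR-455 came second after miR-144, an erythroid microRNA, and was second also without male 1 (0.28 against a median of 0.13). Among all 104 it ranked 16th, and 44th without male 1. These ranks are descriptions of the libraries, with no test.

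The balance of miR-455 in male 1 stood far from that of the other males. Its log2 ratio differed from the mean of the other males by -1.45, the lowest of the 13 abundant hairpins and the second lowest of 104 after miR-32. miR-140 (-0.74) and miR-30a (-0.84) were shifted the same way in male 1, and miR-144 was shifted the opposite way (1.23). In male 1, 43 of the 104 hairpins had a ratio below, and 25 above, those of all other males. Among the 13 abundant hairpins, 5 were below and 6 above. Were no male set apart, each of the 6 males would be lowest in about 1 in 6 hairpins, and highest in as many. An extreme ratio in male 1 was therefore not particular to miR-455. The median shift was -0.18 over the 104 and 0.01 over the 13. Over 261 tested names with a mean of at least 10 CPM and a RefSeq sequence, the deviation of male 1 from the other males had a Spearman correlation of 0.32 and a Pearson correlation of 0.19 with the share of G and C. These names share one library, and the part of base composition in the miR-455 ratio of male 1 was not tested.

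**Figure D3:**
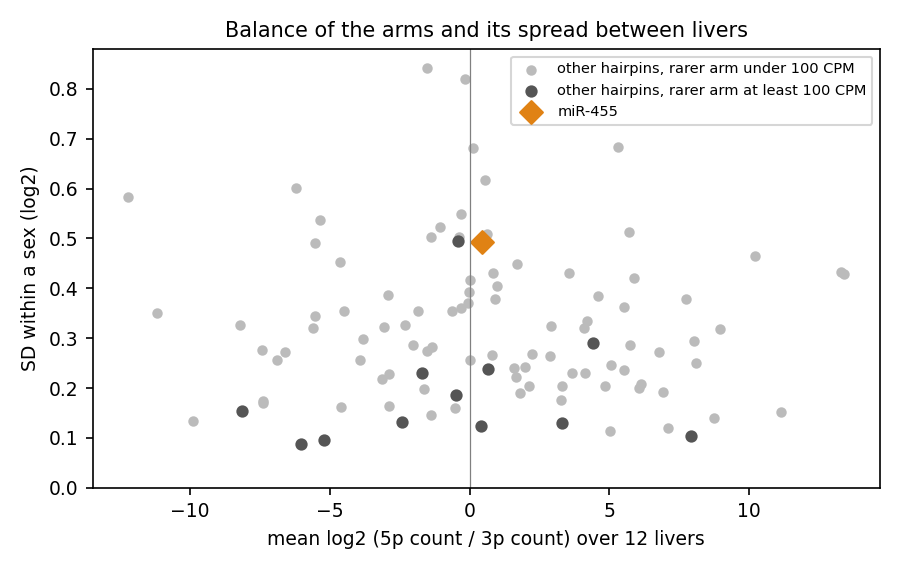
Mean log2 ratio of 5p to 3p counts over the 12 livers (horizontal axis) and its standard deviation within a sex (vertical axis, log2) for 104 hairpins. miR-455 (diamond) lies near an even split, at 0.44, with a standard deviation of 0.49, above all but 1 of the other hairpins whose rarer arm averaged at least 100 CPM (dark points).

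No relation between the levels of the arms was detected within a sex. In males Pearson's r of their log2 CPM was -0.42 (exact permutation p = 0.397, adjusted over the 2 sexes p = 0.397; n = 6) and Spearman's rho was -0.77 (exact permutation p = 0.103, adjusted p = 0.206). In females r was 0.62 (exact permutation p = 0.181, adjusted p = 0.361; n = 6) and rho was 0.60 (exact permutation p = 0.242, adjusted p = 0.242). Scaled by total counts, r in males was -0.72 (exact permutation p = 0.125, adjusted over the sexes). None of these passed the threshold, which with 6 livers leaves all but strong relations undetected. Without the livers farthest from the median of the 5p arm, male 1 and male 5, r in males was -0.24, and without female 1 and female 2, r in females was 0.58 (n = 4 each). The female value rested on female 1, without which r was 0.17. As a description, r for miR-455 ranked 99th of the 104 hairpins in males, where the median was 0.59, and 30th in females, where the median was 0.40.

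The microRNAs most like the mean of both arms over the 12 livers, by Pearson's r of log2 CPM among 299 other names averaging 10 CPM or more, were miR-29b-3p (0.93), miR-664-3p (0.91), miR-1948-5p (0.91), miR-21a-5p (0.91) and miR-29c-3p (0.90). All 5 had higher means in males, so this likeness largely restates the contrast that chose the arms. With the mean of each sex subtracted, the 5 most alike were miR-3073a-3p and miR-3073b-5p (0.80 each, from shared reads of overlapping loci), miR-29c-3p (0.74), miR-3073a-5p (0.72) and miR-3073b-3p (0.72). Only miR-29c-3p, of a family that represses collagen transcripts, stood in both sets.

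Taken singly, the arms had different likenesses, compared here after the values were seen. With sex means subtracted, mmu-miR-455-3p came 158th of 300 names in likeness to mmu-miR-455-5p (r = -0.02). First was miR-140-5p (0.91), followed by miR-194-5p (0.91) and miR-32-5p (0.86). Without male 1, r was 0.51 for miR-140-5p, 0.46 for miR-194-5p and 0.12 for miR-32-5p (n = 11). Other names fell less, miR-192-3p from 0.84 to 0.71 and miR-31-5p from 0.84 to 0.63, and some rose. Without male 1 the name most like the 5p arm was miR-592-5p (0.77, from 0.32). miR-140-5p then came 15th and miR-194-5p 22nd of the 300 names. Within the 6 females, r of miR-140-5p with the 5p arm was 0.90, and within the males other than male 1 it was 0.51. These livers are among those that put miR-140-5p first, so the values are no separate support. For the opposite arm, miR-140-3p, r with the 5p arm in females was -0.02. The names most like mmu-miR-455-3p were miR-676-3p (0.88), miR-497a-5p (0.87) and miR-29a-3p (0.86). Without male 1 their values were 0.89, 0.87 and 0.90. No liver other than male 1 was left out of these likenesses.

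**Figure D4:**
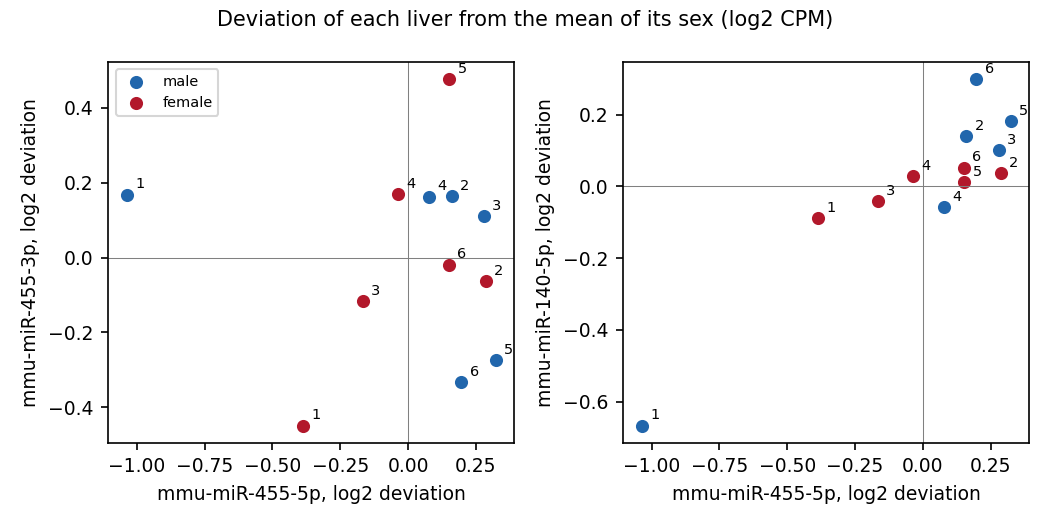
Deviation of each liver from the mean of its sex (log2 CPM) for mmu-miR-455-5p (horizontal axes) against mmu-miR-455-3p (left) and miR-140-5p (right), males in blue and females in red, numbered by liver. Male 1 is low in the 5p arm and in miR-140-5p and slightly high in the 3p arm.

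miR-140 comes from an intron of Wwp2 and, like miR-455, is known from mouse cartilage. miR-140-5p had 302 CPM in male 1, between 461 and 590 CPM in the other males, and between 441 and 486 CPM in females. Male 1 thus lay below every other liver, as it lay below every other male for mmu-miR-455-5p. The sexes did not differ detectably in miR-140-5p, with 490 ± 101 CPM in males against 469 ± 17.2 CPM in females (SD over livers, n = 6 each; log2 fold change 0.06, edgeR adjusted p = 0.78). The opposite arm, miR-140-3p, did not share the low value in male 1 (1420 CPM, with the other males between 1399 and 1542).

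The wider cartilage list held miR-140, miR-145a, miR-199a, miR-675 and miR-1247. Of its 7 tested members none was called higher in males (0 at an unadjusted p under 0.05, 0 by DESeq2). In the other direction 1 was called lower (2 at an unadjusted p under 0.05, 2 by DESeq2). Over all tested names edgeR called 8.35% higher and 8.59% lower, and DESeq2 called 44 names higher and 41 lower. Counts as small as those of the list do not set it apart. Their median log2 fold change was -0.06, beside -0.02 over all tested names. miR-140-3p fell in males, at 1467 ± 52.1 CPM against 1629 ± 57.4 CPM (SD over livers, n = 6 each; log2 fold change -0.15, edgeR adjusted p = 0.0497; every female exceeded every male). That call was lost under 13 of 18 alternatives, with adjusted p between 0.00493 and 0.491; among single livers, leaving out male 1 or male 2 alone kept it. miR-1247-5p averaged 6.01 ± 1.74 CPM in males against 11.8 ± 4.69 CPM in females (edgeR adjusted p = 0.0521), and miR-199a-3p had 871 ± 132 and 990 ± 89.6 CPM (edgeR adjusted p = 0.252). miR-675-5p had no counts.

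Among microRNAs studied in brown and beige fat, 28 were tested, and 2 were called higher and 2 lower in males, beside 16.9% of all tested names called in either direction. Under total counts 0 were called higher and 3 lower. At an unadjusted p under 0.05, 7 were higher and 4 lower in males, and DESeq2 called 3 higher and 3 lower. The share of all tested names at an unadjusted p under 0.05 is not given here. The median log2 fold change of the 28 was 0.07. miR-365-3p, studied with miR-193b in mouse brown fat cells, rose from 306 ± 26.6 CPM in females to 419 ± 73.6 CPM in males (SD over livers, n = 6 each; log2 fold change 0.45, edgeR adjusted p = 0.0169, 5 of 6 males above every female), a call lost when libraries were scaled by total counts. miR-129-5p was also called higher in males (0.54, edgeR adjusted p = 0.0415), at 7.50 against 5.19 CPM, a call lost under 13 of 17 alternatives and kept among single livers only without male 1, male 6 or female 5. miR-106b-5p, of a family that promotes cell division, was lower at 117 ± 10.8 CPM against 161 ± 19.7 CPM (-0.46, edgeR adjusted p = 0.00584; every female exceeded every male), and lost its call only with no filter on low counts. miR-34a-5p, a target of p53, was lower as well, at 36.5 ± 10.4 against 62.2 ± 16.9 CPM (-0.77, edgeR adjusted p = 0.0294), a call lost without male 2, male 3, male 5, female 2, female 5 or female 6. Of the abundant members, miR-26a-5p differed by 0.07 (edgeR adjusted p = 0.478) and miR-27b-3p by -0.30 (edgeR adjusted p = 0.0521). Without male 1 the list had 8 calls, 5 higher and 3 lower in males, where calls over all names rose to 82, 43 higher and 39 lower. Without male 3 or female 2 the list had 2, where calls over all names fell to 47 and 52.

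Other microRNAs of chromosome 4 were compared because the hairpin lies there. The nearest tested names were miR-32-5p, 6.01 Mb before it, and miR-31-3p, 25.6 Mb after it. miR-32-5p averaged 177 ± 66.8 CPM in males against 209 ± 34.3 CPM in females (SD over livers, n = 6 each; edgeR adjusted p = 0.635). miR-31-3p had 14.4 ± 3.02 and 14.9 ± 2.86 CPM (edgeR adjusted p = 0.856). Of 19 other tested names with all loci on mm9 chromosome 4, 1 was called higher in males, miR-30e-5p (log2 fold change 0.58, edgeR adjusted p = 0.00314), and 1 lower, miR-34a-5p. Over all tested names 16.9% were called in either direction. DESeq2 called 1 of the 19 higher and 1 lower, where over all names it called 44 higher and 41 lower. At an unadjusted p under 0.05, 3 of the 19 were higher and 2 lower in males. The like share of all tested names is not given here, so nothing is read from those counts. The median log2 fold change of the 19 was -0.19. The most abundant, miR-101a-3p, differed by 0.18 (edgeR adjusted p = 0.489).

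Markers of other liver cell types were listed to show what else the tissue held. None was called higher in males, beside 8.35% of all tested names, and with 1 to 10 tested names a list such counts say little. The log2 fold change was above 0 in 2 of 10 fibroblast, 1 of 7 immune, 0 of 7 erythroid and 0 of 4 endothelial names. It was above 0 in 1 of 10 biliary, 0 of 1 hypoxia and 2 of 8 hepatocyte names. List medians ran from -0.24 to -0.03, beside -0.02 over all tested names. This lean was not tested, and some members share reads. Of 10 tested fibroblast, stellate and smooth muscle names (miR-143, miR-145a, miR-145b, miR-199a, miR-199b and miR-214), both arms of miR-143 were called lower in males, beside 8.59% of all tested names, and none higher (0 at an unadjusted p under 0.05, 0 by DESeq2). The log2 fold changes were -0.34 for miR-143-3p (edgeR adjusted p = 0.0263) and -0.44 for miR-143-5p (edgeR adjusted p = 0.0273). Each call was lost under 6 of 18 alternatives. Both were lost with no filter on low counts and without male 3, female 1 or female 2; miR-143-3p was also lost without male 2 or male 5, and miR-143-5p without male 6 or female 4. The summed level of the list ranged from 10690 to 16580 CPM in males and from 15320 to 18310 CPM in females. The immune list summed to 1060 to 1839 CPM in males and 1387 to 1908 CPM in females, with 1 of 7 names called lower in males, miR-142a-5p (-0.47, edgeR adjusted p = 0.0256), and none higher (0 at an unadjusted p under 0.05, 0 by DESeq2). The call of miR-142a-5p was lost with no filter on low counts, with the replicate block, and without male 3, male 6, female 1 or female 6. miR-146a-5p, the only immune name above 0, differed by 0.08 (edgeR adjusted p = 0.762) and miR-155-5p by -0.18 (edgeR adjusted p = 0.649).

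In the erythroid list, 0 of 7 were called by edgeR (1 at an unadjusted p under 0.05, lower in males, and 1 by DESeq2), with sums of 1298 to 4955 CPM in males and 2449 to 3816 CPM in females. miR-144-3p came nearest, at 170 ± 63.0 CPM in males against 281 ± 63.7 CPM in females (SD over livers, n = 6 each; edgeR adjusted p = 0.0531). miR-451a, the most abundant, differed by -0.01 (edgeR adjusted p = 0.99), and miR-486a-5p and miR-486b-5p, which share reads, by -0.23 and -0.24 (edgeR adjusted p = 0.579 each). The erythroid sums count such shared reads more than once. In the endothelial list, 0 of 4 were called (0 at an unadjusted p under 0.05, 0 by DESeq2). Its sums were 42470 to 57790 CPM in males and 48320 to 54670 CPM in females. miR-126a-3p and miR-126b-5p, which have nearly the same counts, each differed by -0.08 (edgeR adjusted p = 0.54). Both enter the endothelial sum, which may therefore hold the same reads more than once, and the members are not independent.

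In the biliary and epithelial list, 0 of 10 were called (1 at an unadjusted p under 0.05, lower in males, 0 by DESeq2), with sums of 1554 to 8151 CPM in males and 3242 to 8907 CPM in females. miR-205-3p and miR-429-5p had no counts. miR-200a-3p differed by -0.29 (edgeR adjusted p = 0.696), miR-200b-3p by -0.26 (edgeR adjusted p = 0.749), miR-200a-5p by -0.47 (edgeR adjusted p = 0.55) and miR-205-5p by -0.85 (edgeR adjusted p = 0.082). miR-210-3p, induced by low oxygen, averaged 104 ± 47.1 CPM in males against 123 ± 9.47 CPM in females (SD over livers, n = 6 each; edgeR adjusted p = 0.499; 0 called at an unadjusted p under 0.05, 0 by DESeq2). In the hepatocyte list, 0 of 8 were called (1 at an unadjusted p under 0.05, lower in males, 0 by DESeq2), with -0.10 for miR-122-5p (edgeR adjusted p = 0.132), -0.07 for miR-148a-3p (edgeR adjusted p = 0.54) and 0.12 for miR-194-2-3p (edgeR adjusted p = 0.326). The part of any of these cell types in the levels of miR-455 was not tested.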

How the data were processed

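Small RNA libraries were made from total liver RNA of 6 male and 6 female mice. The authors deposited whole-number read counts for 2044 mature microRNA loci, not normalized. Per the submitters' processing notes Trim Galore, Bowtie2, bedtools and edgeR were used with mm9; no versions or settings are given there. The deposited log2 fold change and average log2 CPM are named as such per the file headers. The protocol is strand-specific; no source used here says whether counting was. Loci of the same name were summed. Sexes were compared with R 4.3.3 and edgeR 4.0.16 (TMM, filterByExpr, glmQLFit, glmQLFTest, threshold 0.05); standard errors were taken from the F statistic, and a prior count of 2 was added before taking log2 CPM. DESeq2 1.42.0 was an alternative. Pairing of the strands used RNAduplex (ViennaRNA 2.7.2). The comparison was also run on simulated counts with the same dispersion for every name and no outlying liver, so that run says little about these data. Up to 4 members of a list were named, 2 by lowest p and 2 by abundance, plus the other calls in the fat list. The members and lists were chosen with earlier results of these data known. RefSeq held sequences for 360 of the 419 tested names and for both arms.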

Additional observations from a re-analysis of the deposited data

Results flagged for a closer look

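The level of mmu-miR-455-5p in male 1, 8.66 on the log2 CPM scale, was far below those of the other males. Its gap to the nearest male was 0.82 of the whole range of the group, where the 95% critical value for 6 samples is 0.625. It was the only flag among 6 groups checked (both arms and their log2 ratio, in each sex), and chance flags about 1 in 20 groups. The log2 ratio in males fell just short of a flag, with male 1 at -0.716, the next male at 0.404 and the highest at 1.085. The 6 groups are not independent, since the ratio is built from the arms. Many other names also deviated in male 1. Among 261 names with a mean of at least 10 CPM and a RefSeq sequence, the deviation of miR-455-5p from the other males (-1.24) was the 19th lowest. By size it was the 20th largest. The 3p arm of the same library was not low.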

How the results depend on the processing

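Both arms kept their direction in every alternative run: the log2 fold change of miR-455-5p was 1.22 to 1.42 and that of miR-455-3p 1.05 to 1.24 when single livers were left out. The log2 arm ratio was 0.38 to 0.54, its difference between the sexes -0.02 to 0.34, and the correlation of the arms -0.52 to -0.32 in males and 0.17 to 0.83 in females; total counts gave -0.72 in males. Names called between the sexes numbered 71, and 47 to 82 without single livers, 47 being without male 3. The same ranges were 0 to 1 for the cartilage, immune, erythroid, biliary and hypoxia lists, 2 to 8 for the fat list, 0 to 2 for the fibroblast list and 1 to 2 for chromosome 4. Total counts gave 3 fat (0 higher, 3 lower), 2 cartilage, 1 erythroid, 2 endothelial, 1 biliary and 1 hepatocyte call. DESeq2 gave 6 fat (3 higher, 3 lower), 2 cartilage and 1 erythroid, and DESeq2 size factors gave 0 cartilage. No low-count filter gave 0 cartilage, 0 fibroblast, 0 immune and 1 erythroid, and a mean of at least 10 CPM gave 1 erythroid. Of the 5 names most like miR-455, 1 was shared after subtracting sex means and 2 by Spearman. The cause was not tested. No pairing by replicate number was seen: same-number correlations ran from -0.127 to 0.302 and no male correlated best with the female of its own number. Whether livers shared litters, housing or batches was not tested. The replicate block gave 48 calls, 1.24 and 1.14 for the arms, and 0 immune calls. The 6 livers of each sex limit the precision.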
